A study of Schizosaccharomyces pombe with 8 samples.

Results

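Fission yeast genes often carry several short introns, and the introns described here are those in the middle of such genes that follow an exon of some length. An intron was taken if it was 41 to under 200 bases wide, was not next to an untranslated region, was neither the first nor the last intron of a gene with 3 or more introns, and followed an exon of at least 80 bases, measured as the gap to the intron before it. This gave 843 of the 5361 introns listed, in 542 host genes, with 358 on chromosome I, 297 on chromosome II and 188 on chromosome III. Poly-A RNA of Schizosaccharomyces pombe was sequenced from wild type (strain OHI246, mating type h-, with leu1-32, ura4-D18 and ade6-M210) and from cwf10-ΔNTE (strain OHI408, mating type h-, with the allele cwf10 2-127-delta and with leu1-32, ura4-D18 and ade6-M21X). Both strains carry leu1-32 and ura4-D18, were grown at 25 °C in yeast extract (YE) medium, and gave 2 libraries each. The labels say that replicates grew together and were handled apart afterwards, and p-values therefore speak of the spread among these libraries alone, which can be technical. The comparison asks how removing residues 2 to 127 of Cwf10 changes splicing.

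Introns are cut out in 2 steps by the spliceosome, which recognises the 5′ splice site, the branch site and the 3′ splice site. Cwf10 is the fission yeast counterpart of Snu114, the GTPase of the U5 particle that acts when the spliceosome is activated and taken apart. In vertebrates short exons are thought to be recognised as units across the exon, whereas fission yeast introns are short and are thought to be recognised mainly across the intron. Internal introns have an exon with splice sites at both ends on either side.

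Splicing was read in 3 ways, each set against the reads of the host gene row. Intron reads, per 1000 host reads, measured the intron kept in RNA and are called retention below. Exon-exon reads measured the spliced junction, and exon-intron reads are the deposited count at the intron's boundaries, whose counting rule is not given in the sources used here. The 4 libraries held 36186264 to 42802817 reads on gene rows. The introns described here held 13893 and 14156 intron reads in the wild-type libraries against 23218 and 27463 in the mutant ones, so a typical single intron rested on 11 reads per wild-type library. The deletion showed in cwf10 itself (SPBC215.12), where exon-exon reads over intron 1 numbered 98 and 85 in wild type against 0 and 0 in the mutant, and over intron 2 numbered 90 and 87 against 2 and 4. Over intron 3 exon-exon reads numbered 82 and 98 against 84 and 99. Intron 2 itself still had intron reads, 6 and 3 in wild type against 12 and 12 in the mutant. Its low exon-exon count therefore does not show that this intron was deleted. Counting did not separate the strands, and 207 of the 843 introns overlap a gene row other than their host, where a read may belong to either. In RNA from whole cultures, fewer cells with a transcript and less of it per cell cannot be told apart, nor can slower splicing and slower decay of unspliced RNA.

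The upstream exons had a median of 172 bases (interquartile range 113 to 302.5) and reached 3785 bases, and the introns had a median width of 53 bases (46 to 69). Of the 843, 842 began with GT and ended with AG in the RefSeq assembly ASM294v3. The sequences below are the 5′ splice sites of introns that the results turn on, the first 4 among those with the highest retention change, the next 2 the pair that fell in retention, then 2 that lost most of their junction reads and 1 whose intron reads were many and not called. Each shows 5 bases of exon and 14 of intron, on the transcribed strand, with the first 6 intron bases in capitals.
pan2 intron 2 (chrI:733041-733084, plus strand): aaaatGTAAGTtagattaa
iqw1 intron 3 (chrII:3164103-3164143, plus strand): atgagGTAAGTcttattgc
nxt2 intron 2 (chrI:2401372-2401440, minus strand): tatacGTATGCgacttcta
crt10 intron 4 (chrII:1329556-1329596, plus strand): taataGTATGCggttacga
lig4 intron 7 (chrIII:600680-600727, minus strand): atctaGTATGAtataaatt
mib1 intron 2 (chrIII:838934-838983, plus strand): cttaaGTATGTtcatttct
rtf1 intron 5 (chrI:4797576-4797620, minus strand): gaaagGTACTCcaattata
pku70 intron 3 (chrIII:2119067-2119137, minus strand): gtactGTAAGTttaatgct
qcr6 intron 2 (chrII:4345100-4345225, minus strand): tcaagGTAAGTaattacgc

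The last 30 bases of the same introns follow, with the chosen branch-site letters, where they lie in the window, and the final 3 bases in capitals. The letters searched, on the transcribed strand only, were CTAAC and, where it was missing, the letters CTGAC or the letters CTAAT or the letters CTGAT, taking the match nearest the 3′ end.
pan2 intron 2: agattaattatgaaactaagtaaattcTAG
iqw1 intron 3: tgcatgggtgatctCTAATgtttgttaTAG
nxt2 intron 2: ttatctgggcagCTAACttatatatatTAG
crt10 intron 4: cgaatactttacattgtCTAATgatttTAG
lig4 intron 7: ttatctttatataCTAATctcttaataCAG
mib1 intron 2: cttctcaactacaaataCTAATtttttTAG
rtf1 intron 5: aattttaaataagaagCTAATtaaattCAG
pku70 intron 3: tgccattaaatgtctCTAACcacagcgCAG
qcr6 intron 2: gttattgaagtgatgCTAATaatgtggTAG

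Retention of these introns was higher in the mutant, by much the same amount as over all introns. Summed over the 828 introns with at least 50 host reads in every library, intron reads numbered 4.65 and 4.58 per 1000 host reads in the wild-type libraries against 8.17 and 8.21 in the mutant ones. The libraries of the strains did not overlap, and the summed level differed 1.78-fold. The exact two-sided permutation test gave p = 0.333, which is the smallest p that 2 libraries against 2 can give. Of 800 introns with enough reads to test, 356 rose (44.5%) and 2 fell (0.25%) in the edgeR quasi-likelihood test at a BH-adjusted p under 0.05. Over all 5038 introns tested, 47.1% rose and 0.298% fell, so the share among these introns lay near the background. The median log2 change was 0.82 (interquartile range 0.35 to 1.36), beside 0.81 over all introns. The mutant libraries lay above the wild-type libraries without overlap in 558 of the 800, or 69.75%, against 71.2% of all introns. The count of 356 fell to 203 without mutant replicate 1 and to 181 without mutant replicate 2, and DESeq2 called 119. Of the 43 introns not tested, 15 had a host under 50 reads in some library and 28 had fewer than 10 intron reads in all.

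**Figure D1:**
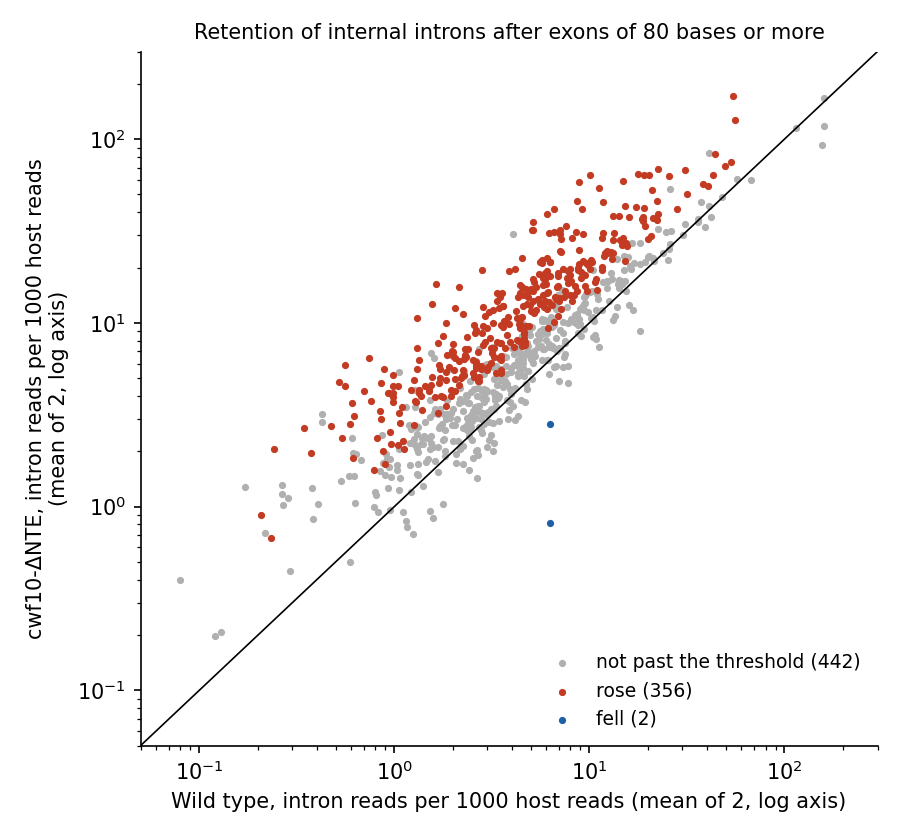
Intron reads per 1000 host reads in wild type (horizontal, log axis) and cwf10-ΔNTE (vertical, log axis), each the mean of 2 libraries, for the 800 tested introns. The 356 introns that rose lie above the line of equality, and the 2 that fell lie below it.

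Most introns stayed at low levels in both strains. The tested introns had a median of 3.94 intron reads per 1000 host reads in wild type against 7.06 in the mutant. In wild type 48 of the 800 exceeded 20 reads per 1000 host reads, and in the mutant 128 did. Above 50 reads per 1000 host reads there were 9 introns in wild type against 28 in the mutant. Against their own junctions, the introns had 13.4 and 13.2 intron reads per 100 exon-exon reads in wild type against 26.9 and 27.1 in the mutant.

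Among introns that averaged 20 or more reads in the higher strain and did not overlap between strains, the highest called change was in iqw1 intron 3 (SPBC609.03, 41 bases, after an exon of 685 bases), in a gene for a WD repeat protein. Its intron reads numbered 0 and 3 in wild type against 15 and 26 in the mutant, among 2641 to 3730 host reads. The levels were 0.56 ± 0.792 and 5.94 ± 1.46 reads per 1000 host reads (SD, n = 2 each; log2 change 3.33, SE 0.64; edgeR quasi-likelihood test, BH-adjusted p = 0.000144). Intron 2 of pan2 (SPAC22G7.04), which encodes a subunit of a poly(A)-shortening nuclease, had 2 and 4 intron reads against 35 and 44. Its exon-exon reads numbered 120 and 92 against 54 and 89, with no overlap, while its host reads were 5763 and 5731 against 7431 and 9174. Relative to the host, its junctions fell by 1.10 on the log2 scale (edgeR quasi-likelihood test, BH-adjusted p = 1.26e-07). Intron 3 of cay1 (SPBC2F12.12c), the gene for cactin, a spliceosome-associated protein, had 3 and 2 intron reads against 34 and 27. Its exon-exon reads numbered 49 and 51 in wild type against 28 and 24 in the mutant, with no overlap. It lies within the row of the non-coding RNA SPNCRNA.1456 on the other strand, which had 1113 and 1196 reads in wild type against 1468 and 1645 in the mutant.

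Of the other introns high in this order, 4 rose without a called fall of the junction. Intron 2 of nxt2 (SPAC15F9.03c), which encodes a nuclear transport protein, had 29 and 21 intron reads in wild type against 123 and 153 in the mutant. That is 5.13 ± 1.49 and 35.5 ± 1.7 reads per 1000 host reads (SD, n = 2 each; log2 change 2.80, SE 0.19; edgeR quasi-likelihood test, BH-adjusted p = 6.17e-12). Its exon-exon reads were 1330 and 1514 against 1098 and 1291, or 289 and 308 per 1000 host reads on average. Intron 2 of lsm5 (SPBC20F10.09), a gene for a ring protein that binds U6 RNA, had 6 and 5 intron reads in wild type against 42 and 31 in the mutant. Intron 2 of rbx1 (SPAC23H4.18c), which encodes the RING subunit of cullin ubiquitin ligases, had 11 and 12 against 64 and 69. In nop52 (SPBC9B6.07), a nucleolar protein gene, intron 2 had 9 and 5 intron reads against 30 and 36. For each of these 4 introns the lower mutant count was at least 3 times the higher wild-type count. The 10 highest were chosen for a high change without overlap between strains, so such separation follows in part from the choice. Apart from nxt2 and wdr74 (below), they met the minimum of reads only through their mutant reads. For the same 4 introns the junction test gave a BH-adjusted p between 0.0523 and 0.163 (edgeR quasi-likelihood). Junctions did fall at dsh1 intron 5 and crt10 intron 4, described below, and at wdr74. Intron 2 of wdr74 (SPBC83.15, ribosome biogenesis), the widest of the 10 highest at 160 bases, had 42 and 25 intron reads against 124 and 166, and its junctions fell by 0.39 on the log2 scale (edgeR quasi-likelihood test, BH-adjusted p = 0.00141).

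The 2 introns with lower retention followed long exons and rested on few reads. Intron 7 of lig4 (SPCC1183.05c), the DNA ligase gene of non-homologous end joining, follows an exon of 1158 bases and had 20 and 10 intron reads in wild type against 7 and 12 in the mutant. Counts overlap between the strains, and only relative to the host, which had 2351 and 2501 against 3029 and 3574 reads, did they separate (log2 change -1.09, SE 0.44; edgeR quasi-likelihood test, BH-adjusted p = 0.042). Its exon-exon reads were 40 and 46 against 36 and 34, and its junctions fell too, by 0.74 on the log2 scale. Intron 2 of mib1 (SPCC63.03, a DNAJC11 family protein gene), after an exon of 1214 bases, had 3 and 8 intron reads against 1 and 1 (log2 change -2.77, SE 0.94; edgeR quasi-likelihood test, BH-adjusted p = 0.0176). It lies within SPNCRNA.581 on the other strand, which had 550 and 572 reads against 727 and 899. DESeq2 called neither, at adjusted p-values of 0.29 and 0.176. Without either mutant library the edgeR test called neither, and without wild-type replicate 1 (lig4) or 2 (mib1) that intron was lost too, at adjusted p-values of 0.526 and 0.243.

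Spliced junctions were lower in the mutant. Summed exon-exon reads numbered 34.6 and 34.7 per 1000 host reads in the wild-type libraries against 30.4 and 30.35 in the mutant ones, a ratio of 0.876 (exact two-sided permutation p = 0.333, the smallest possible). Of 786 introns tested, 155 fell (19.7%) and 6 rose in the edgeR quasi-likelihood test, beside 19.8% and 0.658% of all 4861 introns tested. The mutant libraries lay below the wild-type libraries without overlap in 393 of the 786, or 50%, against 51.1% of all introns. The median log2 change was -0.17, and -0.15 over all introns. The count of 155 was 71, 74 and 100 without wild-type replicate 1, wild-type replicate 2 and mutant replicate 2, and DESeq2 called 40.

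Calls in retention and in junctions often differed. Of 768 introns tested for both, 113 rose in retention and fell in junctions. Another 236 rose in retention with no called fall of the junction, and 42 fell in junctions with no called rise of retention. A change that was not called may still be present, and the same counts over all introns are not given here. Across the 768 introns the Spearman rho between the log2 changes was -0.18 (n = 768 introns, which share libraries, host reads and often genes).

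**Figure D2:**
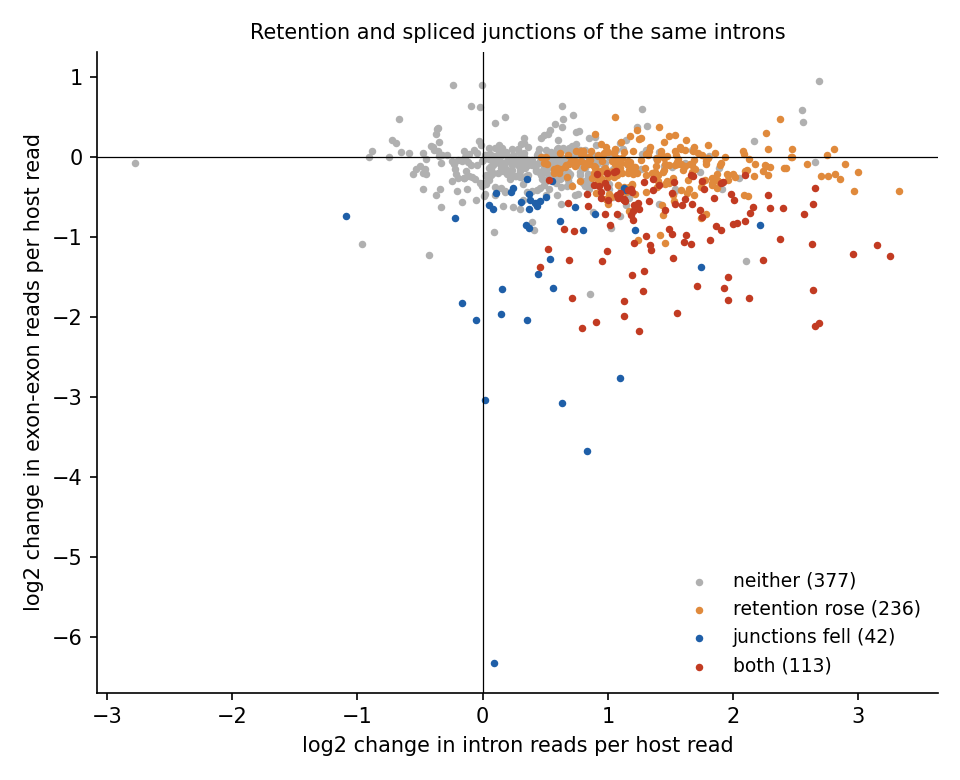
log2 change of intron reads (horizontal) and of exon-exon reads (vertical) per host read, mutant against wild type, for the 768 introns tested for both. The 113 introns called in both lie to the lower right, and 42 introns were called lower in junctions with no called rise of retention. The lowest point is ckn1 intron 2, with 12 and 11 exon-exon reads in wild type against 0 and 0 in the mutant. Its fitted change depends on the value added to counts of 0.

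The lowest called junction change with at least 20 mean wild-type exon-exon reads was in rtf1 intron 5 (SPAC22F8.07c), in a gene for a termination factor of RNA polymerase I. Exon-exon reads numbered 54 and 38 in wild type against 0 and 6 in the mutant, with no overlap (log2 change -3.67, SE 0.44; edgeR quasi-likelihood test, BH-adjusted p = 4.65e-10). Its intron reads were 8 and 12 against 11 and 20, and the retention test gave a log2 change of 0.83 (edgeR quasi-likelihood test, BH-adjusted p = 0.0953), while its exon-intron reads rose relative to the host, at 118 and 98 against 103 and 141. Intron 3 of pku70 (SPCC126.02c), which encodes a subunit of the Ku complex that binds broken DNA ends, had 24 and 18 exon-exon reads against 2 and 4, and its exon-intron reads rose from 7 and 4 to 18 and 22. Intron 4 of the same gene had 24 and 38 against 9 and 8, and its intron reads rose from 9 and 8 to 25 and 26 (log2 change 1.25, SE 0.37; edgeR quasi-likelihood test, BH-adjusted p = 0.00778), a call lost without mutant replicate 1 or 2, at adjusted p-values of 0.067 and 0.0532. All 6 introns of pku70 passed the junction test downward, with log2 changes from -3.08 to -1.46, among them 4 of the introns described here, while host reads numbered 1843 and 1915 in wild type against 2215 and 2506 in the mutant. In mug161 intron 3 (SPAC1F3.09, a CwfJ family splicing factor gene), exon-exon reads were 21 and 29 against 6 and 0, while intron reads were 267 and 312 against 268 and 333. That intron lies inside the row of oct1 on the other strand, with 7308 to 8743 reads, so its intron reads cannot be assigned to mug161.

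Both readings changed strongly in crt10 (SPBC27B12.05), a WD repeat protein gene annotated with a role in ribosomal RNA decay, which has 7 introns, 5 of them in this set. Intron 3 had 7 and 13 intron reads in wild type against 61 and 86 in the mutant, and its exon-exon reads were 47 and 32 against 8 and 13. In intron 4 intron reads were 6 and 6 against 35 and 56, and exon-exon reads were 44 and 37 against 9 and 13. Introns 2 to 5 rose in retention, by 2.24 to 2.68 on the log2 scale, and fell in junctions, while introns 1, 6 and 7 were not called in retention. Junctions also fell at introns 1 and 6, by 1.34 and 0.89, and were not called at intron 7. The same introns 2 to 5 are those that overlap prl15, a non-coding RNA row on the other strand, which had 323 and 337 reads in wild type against 893 and 997 in the mutant. Its part in the intron reads was not tested. The host row had 989 and 987 reads against 1082 and 1209.

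**Figure D3:**
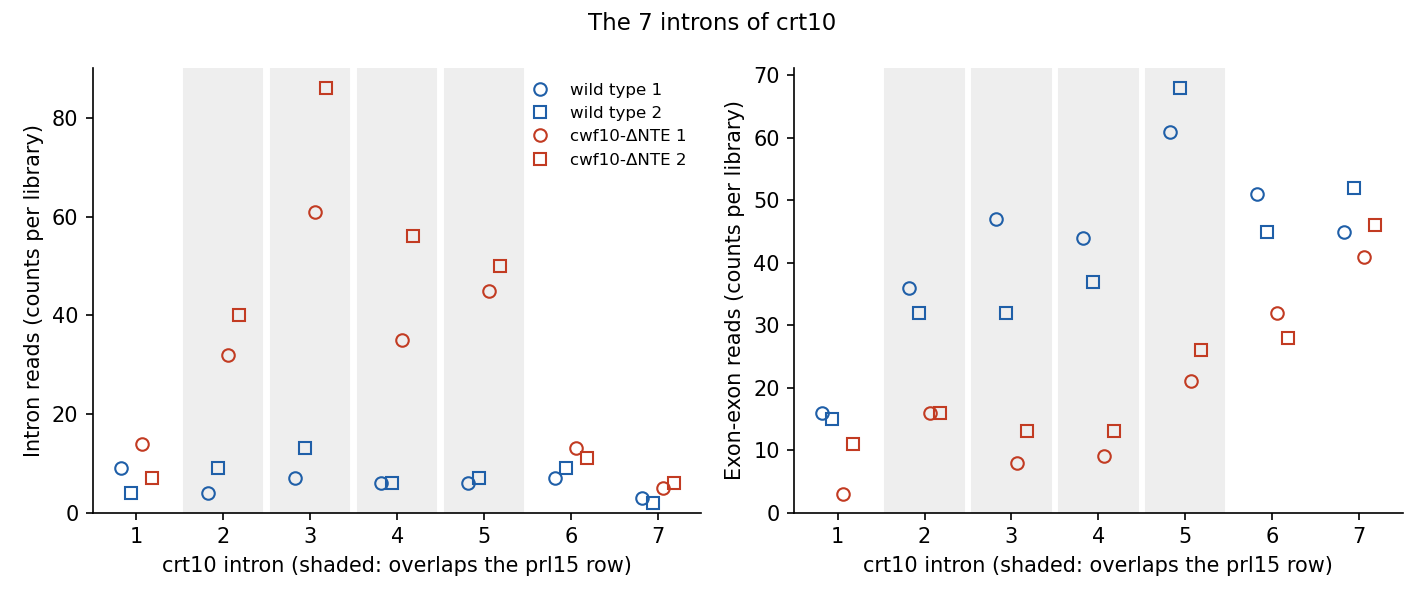
Intron reads (left) and exon-exon reads (right), as counts per library, for the 7 introns of crt10 in 2 wild-type and 2 cwf10-ΔNTE libraries; shading marks the introns that overlap prl15. In the shaded introns every mutant library has more intron reads and fewer exon-exon reads than both wild-type libraries.

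The 6 introns whose junctions rose, chosen after their values were seen, were in sec8, apl1, bet4, msi2, sst2 and srp21, with log2 changes of 0.23 to 0.63. In msi2 intron 2 (SPBC660.15) exon-exon reads were 73 and 79 in wild type against 117 and 147 in the mutant, while intron reads also rose, from 4 and 0 to 12 and 15. For apl1 intron 4 (SPBC2G2.06c, an adaptor protein gene of vesicle traffic) the exon-exon reads were 83 and 60 against 70 and 70, which overlap, and the host row, which shares reads with rpl1603, had 10972 and 11403 against 6669 and 7784. The bet4 row (SPCC1620.05) also shares reads with a neighbour, SPCC1620.06c, which had 14332 and 14642 reads in wild type against 8683 and 10457 in the mutant. The srp21 intron overlaps SPAC17H9.06c as well. Without wild-type replicate 1, wild-type replicate 2 or mutant replicate 1 a single intron was called in this direction.

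Exon-intron reads rose in 226 of 813 introns tested (27.8%; edgeR quasi-likelihood test, BH-adjusted), beside 30.1% of all introns, with a median log2 change of 0.28 beside 0.31. In all, these introns had 43335 and 44796 exon-intron reads in wild type against 48898 and 57333 in the mutant. Of 793 introns tested for both, 149 rose in both retention and exon-intron reads, and the same count over all introns is not given here. Leaving out mutant replicate 1 or 2 gave 131 or 108 in place of 226, and DESeq2 called 61.

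The 353 internal introns after an exon under 80 bases had a somewhat greater change. Their summed retention was 5.48 and 5.41 reads per 1000 host reads in wild type against 10.7 and 10.6 in the mutant, and 195 of 344 rose. The log2 change of the introns after a longer exon was smaller by 0.13 (exact two-sided permutation p = 0.333, the smallest possible), and by 0.04 when introns overlapping another gene were left out of both sets. Within the 126 genes that hold both kinds, 214 introns after a longer exon had 4.98 and 4.59 reads per 1000 host reads in wild type against 8.30 and 8.28 in the mutant. Their 188 neighbours after a shorter exon had 4.69 and 4.43 against 9.23 and 9.15. The difference in log2 change was -0.22, and -0.22 again without overlapping introns (exact two-sided permutation p = 0.333 for both).

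Compared with the first introns of the same genes the difference in change was within the spread between libraries, and compared with the last introns the change was larger. In 422 genes the introns after a longer exon had 4.48 and 4.39 reads per 1000 host reads in wild type against 7.75 and 7.83 in the mutant. The first introns had 3.73 and 3.74 against 6.70 and 6.63, and the log2 changes differed by -0.02, with SDs of 0.03 and 0.02 over the wild-type and mutant libraries (exact two-sided permutation p = 0.667). That difference turned to 0.01 without overlapping introns. In 444 genes the last introns had 5.84 and 5.78 reads per 1000 host reads in wild type against 8.52 and 8.58 in the mutant, and the set described here had 4.80 and 4.73 against 8.51 and 8.55. The log2 change was larger than that of the last introns by 0.28 (exact two-sided permutation p = 0.333, the smallest possible). The levels of the 2 sets lay apart in wild type and close together in the mutant.

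**Figure D4:**
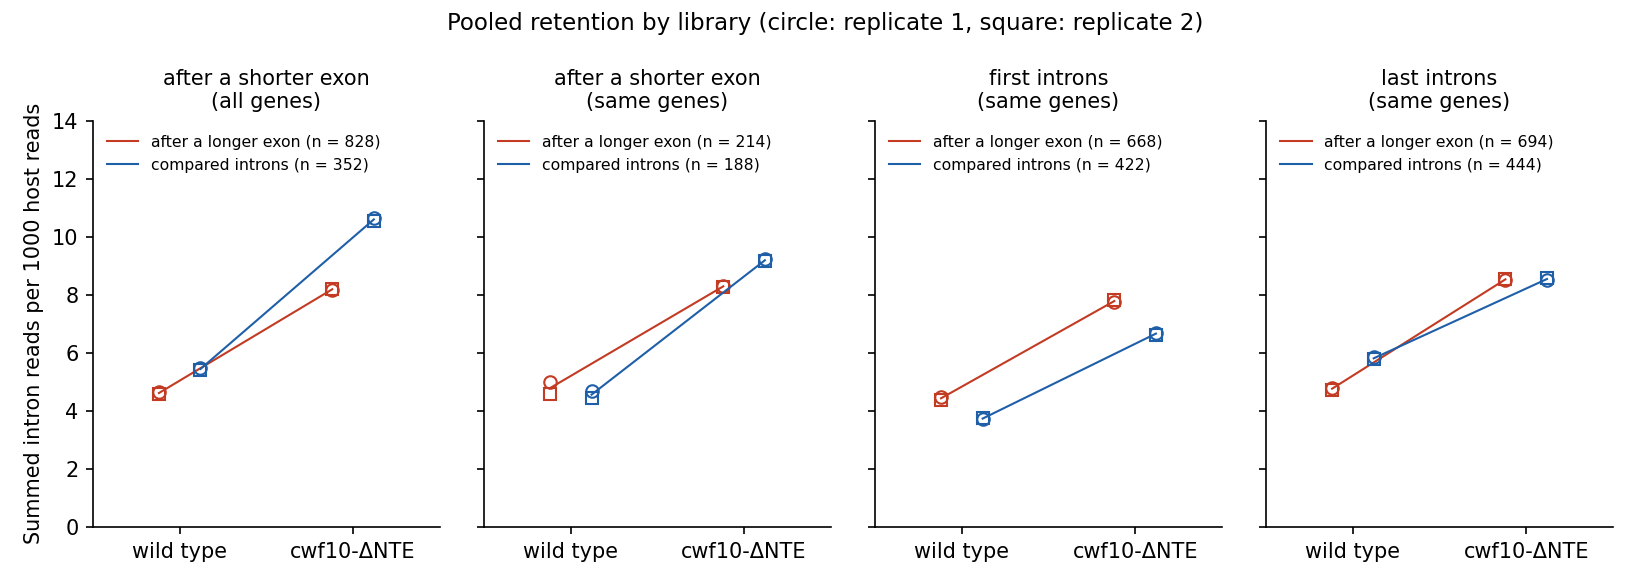
Summed intron reads per 1000 host reads in each of the 4 libraries (circle, replicate 1; square, replicate 2), with lines joining the means of 2 libraries, for introns after a longer exon (red) and the introns they are compared with (blue). The red values rise from about 4.6 to 8.2 in the first panel, the blue values from 5.44 to 10.6.

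With longer upstream exons fewer introns rose. Among introns after exons of 80 to under 120 bases 127 of 237 rose (53.6%), and after 120 to under 200 bases 102 of 220 (46.4%). After 200 to under 400 bases 80 of 196 rose (40.8%), and after 400 bases or more 47 of 147 (32.0%). The median log2 changes of these 4 bins were 0.92, 0.78, 0.84 and 0.62. Below the threshold of 80 bases, 76 of 118 rose after exons of 1 to 39 bases and 119 of 226 after 40 to 79 bases. The Spearman rho between exon length and log2 change was -0.13 (n = 800 introns, sharing libraries and hosts) and -0.17 in the 594 that overlap no other gene. Longer exons went with fewer intron reads (rho -0.15) and lower wild-type retention (rho -0.12), and their part in the trend was not tested.

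**Figure D5:**
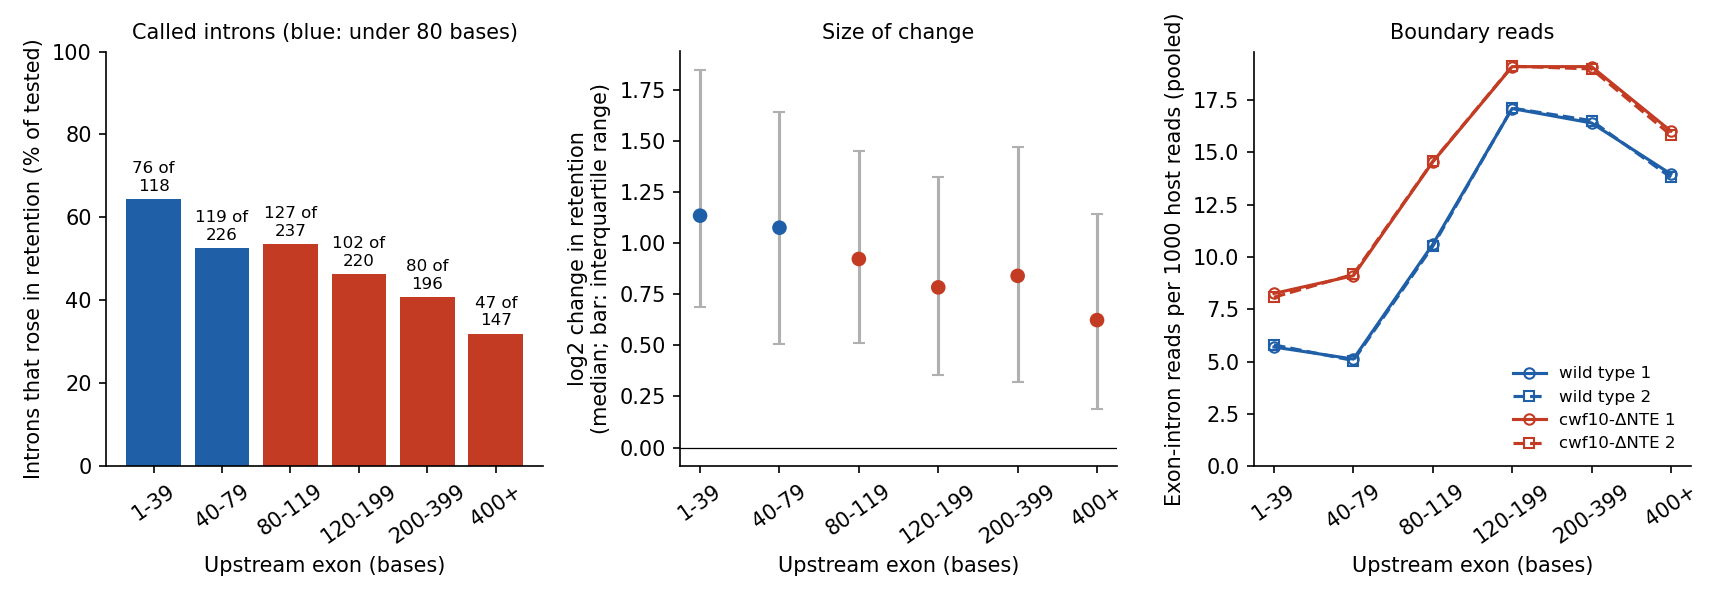
Internal introns by length of the upstream exon: percent of tested introns that rose in retention (left, bars from 0), median log2 change with its interquartile range (middle), and summed exon-intron reads per 1000 host reads in each library (right). The share that rose is 64.4% in the first bin and 32.0% in the last, and exon-intron reads are higher in the mutant in every bin.

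Exon-intron reads behaved differently with exon length. In wild type they numbered 5.70 and 5.80 per 1000 host reads after exons of 1 to 39 bases and 5.12 and 5.05 after 40 to 79 bases. They numbered 10.6 and 10.51 after 80 to under 120 bases, 17.1 and 17.1 after 120 to under 200, 16.4 and 16.5 after 200 to under 400, and 13.96 and 13.8 after 400 or more. The level was thus highest in the middle bins and did not rise steadily with exon length. In the mutant the 6 bins had 8.26 and 8.08, 9.11 and 9.17, 14.5 and 14.6, 19.1 and 19.1, 19.1 and 19.0, and 16.0 and 15.8. The median log2 change was 0.28 after a longer exon and 1.39 after a shorter one, where 193 of 312 rose; this difference was not tested, and how the deposited count depends on exon length is not given in the sources used here.

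At the threshold itself, the 3 introns after exons of exactly 80 bases with the most reads were cyp1 intron 4, srb11 intron 2 and ost3 intron 3. Their retention averaged 25.6, 16.1 and 4.56 reads per 1000 host reads in wild type against 63.3, 37.9 and 7.86 in the mutant. The 3 nearest from below, after exons of 79 bases, were osh41 intron 4, SPAC824.09c intron 3 and pam17 intron 2, with 6.53, 3.44 and 3.49 in wild type against 9.52, 5.34 and 13.7 in the mutant. At the other end, dna2 intron 2 follows an exon of 2794 bases in a gene for a replication nuclease and helicase, and its intron reads numbered 2 and 5 in wild type against 12 and 22 in the mutant (log2 change 1.66, SE 0.53; edgeR quasi-likelihood test, BH-adjusted p = 0.0132). That call was lost without wild-type replicate 1 and without mutant replicate 2, at adjusted p-values of 0.106 and 0.18. After the longest exon, of 3785 bases in stt4, a gene for a phosphatidylinositol kinase, intron 2 had 0 and 8 against 3 and 5, and sec10 intron 3, in an exocyst gene, had 8 and 9 against 10 and 19; neither was called in retention. Exon-intron reads of the sec10 intron did rise, from 0 and 1 to 14 and 11 (log2 change 4.17; edgeR quasi-likelihood test, BH-adjusted p = 3.96e-05), and those of the stt4 intron were not called.

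Splice-site letters varied among the introns. The 5′ letters GTAAGT began 200 of the 843 (23.7%), against 26.3% of all 4483 introns of the same width range, and 61 of 184 tested (33.2%) rose. With GTATGT, in 163 introns, 62 of 156 rose (39.7%), and with GTATGC, in 33 introns, 20 of 31 rose (64.5%), with median log2 changes of 0.77 and 1.30. Among nxt2 and crt10 above, GTATGC is seen in introns that rose, and GTAAGT in pan2 and iqw1 as well. Branch letters CTAAC were found in 375 introns (44.5%, against 44.4% of all), and none of the 4 letter strings in 205 (24.3%, against 24.4%). Of the introns with CTAAC 43.4% rose and of those with none 51.0%. With CTAAT, in 208 introns, 37.0% rose, with CTGAC, in 36, 51.4%, and with CTGAT, in 19, 63.2%. Introns of 41 to 45 bases rose in 54 of 161 cases and those of 69 bases or more in 123 of 213. Their median log2 changes were close, at 0.80 and 0.86, while their median wild-type levels were 2.83 and 6.01 reads per 1000 host reads. These shares are descriptions of introns that share genes and libraries, and a letter match is not a mapped site. The shares that rose among all introns with the same letters or width are not given here.

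If kept, 687 of the introns with a reading frame in the annotation (82.3%) would bring an in-frame stop, 112 would shift the frame and 36 would leave it open. Of those with a stop 300 of 656 rose, of those shifting the frame 34 of 105, and of those leaving it open 17 of 32. The median log2 changes were 0.80, 0.78 and 1.05. Host genes themselves moved both ways: of 539 tested as genes 261 were higher and 152 lower (edgeR quasi-likelihood test, BH-adjusted), with a median log2 change of 0.06. That is 48.4% higher and 28.2% lower, beside 39.6% and 38.5% of all 6536 genes tested, whose median was 0.01.

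Calls often differed between introns of one gene. Of 174 host genes with at least 2 tested introns of the set, all rose in 26, none in 58 and some in 90. Over the set 44.5% of tested introns rose, and differences between introns of a gene were not tested. In 69 genes with at least 3, the log2 changes within a gene spanned a median of 1.32, which includes the error of estimates from few reads. None rose in 19 of these 69. All tested introns rose in 6 of these 69, cdc24, tma20, spo14, dsh1, gpc1 and bet4. Those of spo14 overlap SPNCRNA.1473, and those of bet4 overlap SPNCRNA.1266 or SPCC1620.06c. The bet4 host row had 17109 and 17312 reads in wild type against 12434 and 14552 in the mutant. In dsh1 (SPBC582.04c) all 5 rose, from 26 and 17 to 33 and 49 reads in intron 2 and, with the highest log2 change of 2.96, from 2 and 4 to 25 and 21 in intron 5. In tma20 intron 2, intron reads numbered 59 and 32 in wild type against 118 and 136 in the mutant, and exon-exon reads were 419 and 477 against 228 and 229. The host row of tma20 had 3069 and 3042 reads against 1986 and 2316.

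The genes with the most introns of this kind were trt1, the telomerase reverse transcriptase, with 7, and ppk26, annotated as a PAN complex subunit, with 6. In trt1 (SPBC29A3.14c), with 15 introns in all, 2 of the 7 rose. Intron 2 had 8 and 10 intron reads in wild type against 34 and 34 in the mutant (log2 change 1.75, SE 0.35; edgeR quasi-likelihood test, BH-adjusted p = 0.000179), and intron 3 had 37 and 41 against 74 and 70. Introns 8, 9, 10, 11 and 14 were not called in retention, with log2 changes from -0.15 to 1.01. Of the 7, introns 10 and 14 rose in exon-intron reads, from 6 and 7 to 25 and 18 and from 4 and 5 to 27 and 41 (log2 changes 1.56 and 2.73; edgeR quasi-likelihood test, BH-adjusted p = 0.00244 and 3.12e-09). In ppk26 (SPBC336.14c) 4 of the 6 rose, introns 2, 4, 7 and 9, with log2 changes of 1.34 to 1.68. Of these, intron 7 also fell in junctions, from 105 and 105 exon-exon reads to 39 and 55, while introns 2, 4 and 9 had junction changes of 0.08 to 0.21 that were not called. Exon-intron reads rose at ppk26 introns 7, 9 and 10, by 1.29, 2.39 and 0.93 on the log2 scale. At trt1 intron 3, which rose in retention, junctions fell too, from 56 and 45 exon-exon reads to 32 and 27 (log2 change -0.93, edgeR quasi-likelihood test, BH-adjusted p = 0.00264). Junctions fell without a retention call at trt1 intron 11 and ppk26 intron 10, by 0.66 and 0.58. The call in trt1 intron 3 was lost without mutant replicate 1 (adjusted p = 0.102), that in ppk26 intron 4 likewise (0.0796), and that in ppk26 intron 7 without wild-type replicate 1 (0.0739) or mutant replicate 2 (0.134).

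The shares of introns that rose in the gene lists lay on both sides of the 47.1% over all introns. The ubiquitin and nuclear pore lists lay above it, the cell-cycle list next to it, and the spliceosome, actin and traffic lists below it, which was not tested. In junctions 19.8% of all introns tested fell and 0.658% rose, and the junction counts of the lists were not tested against these shares. Of 22 introns of ubiquitin and proteasome genes, 14 rose and none fell, with a median log2 change of 0.84, and 1 fell in junctions. In rhp6 intron 3, of a ubiquitin-conjugating enzyme gene, intron reads were 79 and 72 in wild type against 133 and 155 in the mutant. In ubc13 intron 2, in another, they were 62 and 82 against 122 and 111, and that call was lost without mutant replicate 1 (adjusted p = 0.0558). Of 34 tested introns of cell-cycle and DNA replication genes 16 rose, and 8 of 37 fell in junctions. Intron 4 of cds1, the replication checkpoint kinase gene, had 19 and 22 intron reads against 59 and 56, and exon-exon reads of 128 and 124 against 91 and 110, and it overlaps SPNCRNA.1155, with 899 and 867 against 1146 and 1328 reads. In cnd3 intron 3, in a condensin gene, intron reads were 42 and 32 against 40 and 50, with no retention call, opposite spc25. Its exon-intron reads fell relative to the host, at 83 and 100 against 55 and 88 (log2 change -0.59; edgeR quasi-likelihood test, BH-adjusted p = 0.0032).

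Of 13 introns of nuclear pore and transport genes 7 rose and 4 fell in junctions, with nup45 intron 4 at 13 and 14 intron reads against 43 and 57. For microtubule and actin genes 8 of 19 rose and 4 fell in junctions. Intron 3 of arp3, a subunit of the actin-branching complex, had 54 and 59 intron reads against 160 and 194, and it lies opposite SPAC630.04c, with 9410 and 9813 against 8946 and 10596 reads. Intron 2 of cdc4, a myosin light chain gene, had 61 and 67 against 111 and 133. Of 34 introns of small GTPase and vesicle traffic genes 10 rose, 2 fell in junctions and 2 rose in junctions. There gga22 intron 4 had 35 and 33 intron reads against 55 and 72, and ypt5 intron 2 had 25 and 36 against 44 and 48, a call lost without wild-type replicate 1 or either mutant replicate (adjusted p-values of 0.231, 0.171 and 0.126).

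Of 19 introns of spliceosome genes 7 rose, lsm5 and cay1 above among them, with a median log2 change of 0.69. The 2 with the most reads, lsm4 intron 2 and prp17 intron 4, were called in none of the 3 readings, with intron reads at 69 and 63 against 83 and 86 and at 43 and 32 against 42 and 43, and they lie opposite bpl1 and fab1. Of 3 introns of respiratory chain genes 1 rose. The list of cytosolic ribosomal protein genes matched a single intron, in rpp40, annotated as an RNase P subunit, at 12 and 9 against 15 and 21, which was not called. In all 8 lists no intron fell in retention, beside 0.298% of all introns tested.

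Among introns with at least 100 mean reads, the 5 with the smallest retention changes were in mug161, described above, qcr6, rmt1, cdd1 and SPBC651.07, and each was called in another reading. Intron 2 of qcr6, in a gene for a subunit of the cytochrome bc1 complex, had 109 and 110 intron reads in wild type against 116 and 126 in the mutant (11.1 ± 0.109 and 13.5 ± 0.479 per 1000 host reads, SD, n = 2 each; edgeR quasi-likelihood test, BH-adjusted p = 0.0886). The levels did not overlap, and its exon-intron reads rose from 14 and 16 to 40 and 56 (log2 change 1.81; edgeR quasi-likelihood test, BH-adjusted p = 8.73e-09). In rmt1 intron 6, of an arginine methyltransferase gene, intron reads were 206 and 153 against 116 and 146, and host reads were 7359 and 7842 against 5003 and 5943. Its log2 change was 0.02 relative to the host and -0.45 when scaled by library size instead. Its exon-intron reads were few, 4 and 2 against 4 and 12, and were called higher relative to the host (log2 change 1.84; edgeR quasi-likelihood test, BH-adjusted p = 0.026). For comparison, in pfd1 intron 2, a prefoldin gene, intron reads were 160 and 139 against 122 and 157, and the log2 change of 0.49 relative to a host row with 2827 and 2755 against 1719 and 1997 reads became -0.09 when scaled by library size. Intron 3 of cdd1 had 115 and 109 intron reads against 108 and 113 while its exon-exon reads fell from 55 and 74 to 17 and 23. SPBC651.07 intron 2 had 123 and 121 intron reads against 142 and 176, and exon-exon reads of 110 and 153 against 44 and 52 (log2 junction change -1.38). Its retention was called higher (log2 change 0.45; edgeR quasi-likelihood test, BH-adjusted p = 0.00531), as were its exon-intron reads, at 124 and 149 against 182 and 191 (log2 change 0.53). For SPBC651.07 intron 2, DESeq2 did not call the rise in retention (adjusted p = 0.13), and the log2 change was 0.40 without mutant replicate 2. The cdd1 intron overlaps azr1 on the other strand, with 5128 to 6192 reads.

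The highest wild-type levels among introns with at least 50 reads were in SPCC1884.01, pfd1 and SPCC132.03. Intron 2 of SPCC1884.01, of an uncharacterised gene, had 74 and 81 intron reads against 73 and 99, or 107.7 and 122 against 105.8 and 123.6 per 1000 host reads, and 0 exon-exon reads in each of the 4 libraries. It lies opposite SPNCRNA.1096, with 1961 to 2236 reads. Likewise coq4 intron 2, in a ubiquinone synthesis gene, had 41 and 32 against 46 and 50 intron reads and 0, 0, 0 and 1 exon-exon reads. By contrast SPCC132.03 intron 2, 194 bases wide and also in an uncharacterised gene, had 84 and 90 intron reads in wild type against 304 and 379 in the mutant. Its exon-exon reads were 129 and 131 against 58 and 94, so intron reads outnumbered junction reads only in the mutant (log2 retention change 1.66, SE 0.12; edgeR quasi-likelihood test, BH-adjusted p = 7.77e-12). The lowest wild-type levels were in cbs2, pre3 and paa1. Intron 2 of cbs2 had 23 and 28 intron reads against 90 and 112. Intron 2 of pre3, a proteasome core gene, had 29 and 27 against 89 and 95. Intron 4 of paa1, a phosphatase scaffold gene, had 54 and 60 against 58 and 49. The minimum of 50 was a mean over all 4 libraries, which cbs2 and pre3 passed only through their mutant reads. Their rise therefore follows in part from the choice. The paa1 intron was not called in retention, and its exon-intron reads rose relative to the host, at 57 and 79 against 73 and 85 (log2 change 0.45; edgeR quasi-likelihood test, BH-adjusted p = 0.0387).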

How the data were processed

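Poly-A RNA-seq of 2 wild-type and 2 cwf10-ΔNTE libraries was analysed from the first reads; the second reads, listed as samples of their own, come from the same fragments and were left out. Per the submitters' processing notes the tools included CASAVA 1.8.2 and also Bowtie 0.12.7, with no roles stated. Which genome build was used, and which annotation, is not given in the sources used here; chromosome I has 5579133 bases in the reference used (RefSeq ASM294v3), and 842 of the 843 introns begin with GT and end with AG there. The authors deposited raw read counts per gene and intron row and exon-intron counts per intron, per the file headers. The authors also deposited log2 splicing efficiencies and a q-value for them, per the file headers; in the authors' deposited table, 303 of 843 introns (35.9%) and 1950 of all 5361 (36.4%) have a q-value under 0.05. Exon-exon counts were solved from the deposited log2 splicing efficiency and were whole within 0.001 for all 5361 introns in the 4 libraries. Deposited row widths and coordinates were used to place introns. Gene symbols came from the reference table for 542 of 542 host genes.

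Intron, exon-exon and exon-intron counts were each tested over all introns with edgeR 4.0.16 (quasi-likelihood, glmQLFit and glmQLFTest, R 4.3.3), with the log of host reads plus 1 as offset, no replicate term and Benjamini-Hochberg (BH) adjustment at 0.05, where the intron had 10 or more reads over the libraries and its host 50 or more in each. The fits were tested on simulated data. The SE was taken as the absolute log2 change divided by the root of the F statistic. Pooled values, one per library, were compared by exact two-sided permutation over libraries (scipy 1.17.1), the host reads being counted once per intron. DESeq2 1.42.0, other filters, scalings and exon thresholds, a replicate term, libraries left out in turn and overlapping introns left out were tried as alternatives.

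Named introns are the 10 highest called retention changes with 20 or more mean reads in the higher strain and no overlap between strains, all called lower, the 5 lowest called junction changes with 20 or more mean wild-type exon-exon reads, the 3 highest and 3 lowest wild-type levels among introns with at least 50 mean reads, all of the 2 genes with most introns, the 3 with the longest exons and the 3 on each side of 80 bases, up to 2 per gene list, and the 5 with the smallest change among those with at least 100 mean reads; introns named as chosen after their values were seen, and those of hosts whose introns all rose, are added. The introns and the 8 gene lists were chosen with earlier results of these data known. Intervals are not given for counts; the permutation p covers only these libraries.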

Additional observations from a re-analysis of the deposited data

How the results depend on the processing

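Counts of called introns depended on the tool and the number of libraries, and the cause was not tested. With DESeq2 the 356 introns that rose in retention became 119, the 2 that fell 0, the 155 lower junctions 40, the 6 higher junctions 0 and the 226 that rose in exon-intron reads 61. At an unadjusted p under 0.05 DESeq2 had 0 introns lower in retention and 2 with higher junctions, and edgeR 3 and 12. Leaving out each library in turn gave 181 to 312, 0 to 2, 71 to 115, 1 to 4 and 108 to 174. With an upstream exon of at least 150 bases, which holds fewer introns, 175, 79 and 90 were called for retention, lower junctions and exon-intron reads. A minimum of 40 summed reads left 1 intron lower in retention, and leaving out introns that overlap another gene row left 1 lower in retention and 3 with higher junctions. Scaling by library size in place of host reads, with TMM or with DESeq2 size factors, gave 62 and 62 higher junctions, 401 and 399 introns higher in retention, and a median retention change of 0.88 with TMM. The difference from first introns, -0.02, turned to 0.0131 without overlapping introns of the set, to 0.0138 without them in both sets, an alternative chosen after seeing the data, and to 0.0268 at a threshold of 60 bases. The change of rmt1 intron 6 turned to -0.449 and -0.456 and that of pfd1 intron 2 to -0.0945 and -0.102 under the 2 library scalings. The labels do not mark numbers 1 and 2 as a shared batch. Same-numbered deviations had a correlation of -0.0312, which with 2 libraries per strain cannot show whether the numbers pair the samples. With a replicate block 357 introns rose and 2 fell in retention, 158 fell and 8 rose in junctions, and 222 rose in exon-intron reads. Of the named introns' values under the alternatives, 564 kept direction and side of the threshold, 40 lost the call, 6 gained it and 4 changed sign. Among named introns, DESeq2 did not call the retention rises of pku70 intron 4, dna2 intron 2, trt1 intron 3 and ypt5 intron 2. Nor did it call those of ppk26 introns 4 and 7, srb11 intron 2, ost3 intron 3, gga22 intron 4, osh41 intron 4, pfd1 intron 2 and SPBC651.07 intron 2. Depth limits single introns most: their median was 11 reads in a wild-type library.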

Other observations

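Among the introns that leave the reading frame open if kept, 17 of 32 tested rose, beside 47.1% of all introns tested. Some lie in genes with known roles. Intron 2 of tgs1, the gene for the enzyme that adds the trimethyl cap of small nuclear RNAs, had 9 and 8 intron reads in wild type against 25 and 22 in the mutant. Intron 5 of nup107, a nuclear pore gene, had 9 and 11 against 31 and 28, and intron 5 of nbs1, a DNA repair gene, had 6 and 6 against 14 and 23. In rtf1 intron 2 they were 16 and 15 against 40 and 33. These introns were chosen after their values were seen.

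Retention changes were spread over the chromosomes. On chromosome I 152 of 349 tested introns rose, on chromosome II 136 of 292 and on chromosome III 68 of 159, with median log2 changes of 0.80, 0.80 and 0.86. Over all introns tested 47.1% rose, and their shares by chromosome are not given here.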
